A study of Rattus norvegicus with 6 samples.

Results

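The DnaJ family, also called HSP40 or J-domain proteins, was taken as every gene whose symbol starts with Dnaj: 46 of the 25629 genes in the files, counted as unique molecular identifiers (UMIs) in single nuclei of the rat nucleus accumbens. The 46 rows include the pseudogene Dnajb6-ps10. Whether a gene belongs to this set follows from its symbol alone. Of the 46, 42 had enough counts to be tested over all nuclei, and the other 4 (Dnajb8, Dnajc5g, Dnajc22 and Dnajb6-ps10) did not pass the filter on low counts.

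DnaJ proteins are partners of the HSP70 chaperones. Their J domain binds HSP70 and speeds its hydrolysis of ATP, which locks HSP70 onto an unfolded client, and the rest of each DnaJ protein sets where this happens and on which client. Some members are made in bulk when proteins misfold: Dnaja1 and Dnajb1 are classical targets of heat shock factor 1 in the cytosol and nucleus, and Dnajc3, Dnajb9 and Dnajb11 belong to the unfolded protein response of the endoplasmic reticulum (ER). Others have standing duties, such as Dnajc6 (auxilin) and Dnajc5 (cysteine string protein) at neuronal vesicles.

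Every animal was an adult Sprague-Dawley rat of postnatal day 90 to 120 with a history of heroin self-administration, so no library comes from opioid-naive tissue. The rats pressed for heroin for 7 days at a fixed ratio of 1, then for 4 days at a fixed ratio of 3, took a progressive ratio test on day 12 and went back to the ratio of 3 on days 13 and 14. They then received saline or naloxone, an opioid receptor antagonist whose dose the labels do not state, and the brains were taken 1 hour later. Tissue of 6 male and 6 female rats was combined into 6 libraries, 3 saline (replicates 1 to 3) and 3 naloxone (replicates 4 to 6), each holding both sexes. The comparison asks how gene expression 1 hour after naloxone differs from that after saline in animals that had taken heroin.

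The 6 libraries held 64260 barcodes and between 55739350 and 76272798 UMIs each. The labels speak of 44592 sequenced nuclei, a filter for which is not given in the sources used here. After filters and removal of 2649 called doublets, 58960 nuclei were used, and 40224 of them fell in 12 classes named from marker genes, of which 10 had at least 20 nuclei in every library and were tested. The 18736 nuclei of clusters that no marker list named entered only the sums over all nuclei and the counts by cluster. Pairs of libraries shared 19 to 45 barcodes, at most 0.408% of the smaller library. The median UMI count per nucleus was 4386 to 6034 in saline and 4206 to 6475 in naloxone libraries, and naloxone replicate 5 had the highest median mitochondrial share, 0.564% against 0.153% to 0.345% in the others. A p-value of naloxone against saline over all nuclei or within a class measures the spread between pooled libraries, not between single rats. Comparisons of classes or sexes took library as a block, and their p-values measure the spread left after differences between libraries are removed. The same holds for the class by treatment and sex by treatment terms.

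3 members whose values recur below are shown first by the 250 bases before their transcription start, because the elements through which heat shock and ER stress are known to act lie there. The sequences are those of RefSeq for build GRCr8, which held a promoter for 35 of the 46 members. They are written 5′ to 3′ on the gene's own strand, Dnaja1 (ENSRNOG00000007029 in the files) at chr5:60638154-60638403 on the plus strand, Dnajb1 (ENSRNOG00000021824) at chr19:41431142-41431391 on the minus strand and Dnajc3 (ENSRNOG00000010352) at chr15:102432417-102432666 on the plus strand. Capitals mark a head-to-head pair of heat shock units (GAANNTTC) in the first 2 sequences and the ER stress element (CCAAT and CCACG with 9 free bases between them) in the last.
Dnaja1: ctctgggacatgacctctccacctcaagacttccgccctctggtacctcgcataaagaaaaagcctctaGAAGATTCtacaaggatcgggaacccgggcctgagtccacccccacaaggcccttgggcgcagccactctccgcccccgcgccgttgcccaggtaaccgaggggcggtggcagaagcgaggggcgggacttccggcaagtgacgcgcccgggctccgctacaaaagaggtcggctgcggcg
Dnajb1: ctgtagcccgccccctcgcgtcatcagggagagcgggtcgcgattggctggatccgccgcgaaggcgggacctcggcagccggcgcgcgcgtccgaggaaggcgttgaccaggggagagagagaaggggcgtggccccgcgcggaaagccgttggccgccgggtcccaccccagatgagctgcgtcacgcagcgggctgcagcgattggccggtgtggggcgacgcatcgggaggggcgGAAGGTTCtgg
Dnajc3: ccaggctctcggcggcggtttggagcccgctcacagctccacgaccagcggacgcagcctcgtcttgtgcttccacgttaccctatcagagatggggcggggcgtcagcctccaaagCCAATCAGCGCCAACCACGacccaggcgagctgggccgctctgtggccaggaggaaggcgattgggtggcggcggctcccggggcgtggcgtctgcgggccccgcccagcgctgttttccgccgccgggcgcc

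The pair lay at -181 to -174 of the start in Dnaja1 and at -11 to -4 in Dnajb1. Both strands were searched, and GAANNTTC reads the same on both. It was present in 5 of the 35 Dnaj promoters (Dnaja1, Dnajb1, Dnajb6, Dnajc18 and Dnajc5g) and in 7.23% of the 33469 promoters of all genes. The tail-to-tail pair TTCNNGAA was present in 1 Dnaj promoter, that of Dnajc27, and in 7.48% of all promoters. No Dnaj promoter held the heat shock element of 3 units, the head-to-head pair followed by 2 free bases and GAA, which contains both pairs and was present in 0.663% of all promoters. The ER stress element, which contains a CCAAT box, lay at -133 to -115 in Dnajc3, the only Dnaj promoter that held it, against 22 of the 33469 promoters or 0.0657%. Such a match is a description of letters in this window, not of a bound site.

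A member was counted as detected in a class where it reached 5 CPM, UMIs scaled to 1000000 for all genes of that class, in each of the 6 libraries. This count does not separate a nucleus's own RNA from free RNA of other cells: the 4 somatostatin interneuron markers together reached 17.4 to 35.8 CPM in oligodendrocyte-like nuclei. By that count 34 of the 46 were detected in the Drd1-like spiny neurons, 33 in the Drd2-like and 34 in the Grm8-like spiny neurons, 33 in cholinergic and 32 in somatostatin interneuron-like nuclei, 34 in astrocyte-like and 34 in oligodendrocyte-like nuclei, 33 in oligodendrocyte precursor-like, 30 in microglia-like, 29 in endothelial-like and 32 in ependymal-like nuclei. The share of all genes detected by the same count was 36% in the Drd1-like, 35.4% in the Drd2-like, 36.8% in the Grm8-like, 32.4% in the cholinergic, 32.5% in the somatostatin, 37.7% in the astrocyte-like, 36% in the oligodendrocyte-like, 35.3% in the precursor-like, 32.5% in the microglia-like, 30.8% in the endothelial-like and 31.9% in the ependymal-like class. The mural-like class, with 24414 UMIs in its smallest library, had 17 members detected and 17.8% of all genes. In all 10 tested classes 25 members were detected, 11 in some of them and 10 in none.

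The members missing from every class included most of the genes known from testis. Dnajb8, known from testis, had 0 UMIs in the nuclei used, which allows a level of up to 0.008 CPM over all nuclei by counting error, and Dnajc5g had 1 UMI. Dnajb3, Dnajb7, Dnajc5b, Dnajc4, Dnajc22, Dnajc30 and Dnajb6-ps10 did not reach 5 CPM in every library of any of the 12 classes, although the 6 libraries of Dnajc30 averaged 9.99 CPM on 4 UMIs in mural-like, those of Dnajc4 6.69 CPM on 7 UMIs in endothelial-like and those of Dnajc22 6.58 CPM on 15 UMIs in microglia-like nuclei. Dnajb13, a component of motile cilia and sperm flagella, was detected in the ependymal-like class alone, at 48.2 ± 19.2 CPM (SD, n = 6) on 56 UMIs. The next class, endothelial-like, averaged 7.90 ± 7.75 CPM on 9 UMIs, and the 2 ranges overlapped. Dnajb5 was detected only in the 3 spiny neuron classes, at 8.74 ± 1.27 CPM in Drd1-like, 11.9 ± 1.99 CPM in Drd2-like and 12.4 ± 2.22 CPM in Grm8-like nuclei. Endothelial-like nuclei averaged 13.1 ± 10.0 CPM of it on 14 UMIs without reaching the threshold in every library. Dnajb1 was detected only in oligodendrocyte-like (10.3 ± 4.42 CPM) and ependymal-like nuclei (11.8 ± 3.20 CPM).

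**Figure D1:**
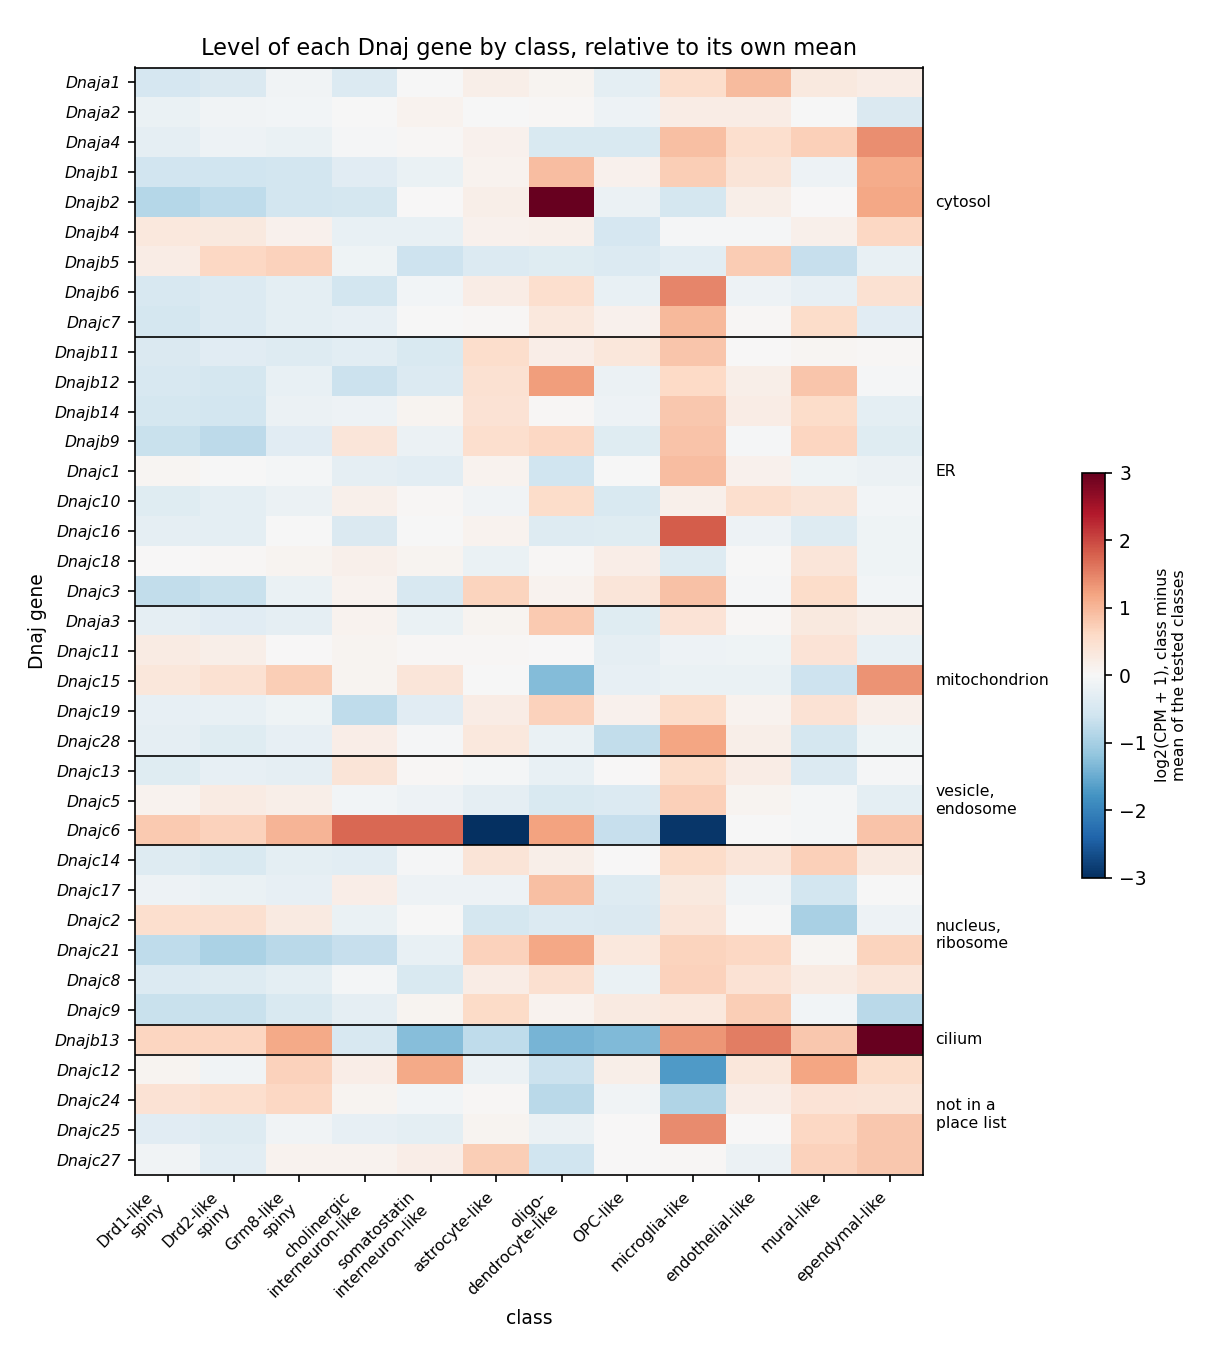
Level of the 37 Dnaj genes detected in at least 1 of the 12 classes (rows, grouped by the place of the protein in the cell) in each class (columns), as log2(CPM + 1) of the mean of the 6 libraries minus the mean of that gene over the 10 tested classes. Red cells are above the gene's own mean and blue cells below it; Dnajb2 stands out in the oligodendrocyte-like column at 262 CPM, Dnajb13 in the ependymal-like column at 48.2 CPM, and Dnajc6 is lowest in the astrocyte-like and microglia-like columns at 8.82 and 14.2 CPM. OPC is oligodendrocyte precursor.

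Between glia and spiny neurons most members differed. Each glial class was set against the mean of the 3 spiny neuron classes in edgeR's quasi-likelihood test with library as a block and Benjamini-Hochberg adjustment over 13395 genes; 38 members were tested, and a gene is called here where its adjusted p is under 0.05. In the astrocyte-like class 17 members were called higher and 15 lower, where 39.4% and 37.2% of all genes were. The oligodendrocyte-like class had 18 higher and 16 lower, against 40.9% and 40.8% of all genes, and the microglia-like class 14 higher and 11 lower, against 32% and 36.8%. A call between classes was thus common to most genes, and the sizes below carry the description. The classes of a library share their source.

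Dnajc6, the auxilin that strips clathrin from vesicles, was the member that differed most between neurons and astrocytes. It stood at 191, 199, 198, 197, 202 and 193 CPM in the Drd1-like class of saline replicates 1 to 3 and naloxone replicates 4 to 6. In the astrocyte-like class the same libraries gave 5.78, 11.6, 7.25, 6.63, 13.6 and 8.05 CPM. Every library was far lower in astrocyte-like nuclei. The difference from the spiny classes was -4.83 (SE 0.12) on the log2 scale for astrocyte-like and -4.43 (SE 0.19) for microglia-like nuclei (adjusted p = 1.36e-45 and 1.8e-32 in edgeR's quasi-likelihood test). Oligodendrocyte-like nuclei did not share this: they held 262 ± 23.4 CPM of Dnajc6 (SD, n = 6), and the member was not called there. Cholinergic and somatostatin interneuron-like nuclei had the highest levels, 373 ± 16.5 and 375 ± 17.4 CPM, whose ranges overlapped.

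Dnajb2, a cytosolic member with ubiquitin-binding motifs that is known from neurons, was instead highest in oligodendrocyte-like nuclei. Its level there was 284, 288, 287, 232, 237 and 245 CPM in the 6 libraries in the same order, 3.62 times the next class, ependymal-like, at 72.5 ± 26.9 CPM, with no overlap of ranges. Drd1-like nuclei held 17.2 ± 1.91 CPM. The difference from the spiny classes was 3.49 (SE 0.06; adjusted p = 4.65e-57 in edgeR's quasi-likelihood test). Also higher in oligodendrocyte-like than in spiny nuclei were Dnajc21, which acts in the making of the large ribosomal subunit, by 1.78 (SE 0.06), Dnajb1 by 1.45 (SE 0.16) and Dnajb12, an ER membrane protein of protein degradation, by 1.40 (SE 0.06). Lower there were Dnajc15, of the inner mitochondrial membrane, at -2.21 (SE 0.09), and Dnajc24, of diphthamide synthesis, at -1.71 (SE 0.08).

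Dnajc16, a transmembrane ER member, was highest in microglia-like nuclei. Its level was 68.6, 94.8, 119, 149, 105 and 98.0 CPM in the 6 libraries, 3.33 times the next class, astrocyte-like, at 31.7 ± 2.68 CPM, and no library overlapped. The difference from the spiny classes was 1.36 (SE 0.11; adjusted p = 7.47e-18 in edgeR's quasi-likelihood test). Dnajb6, which keeps polyglutamine proteins from aggregating, was higher by 1.19 (SE 0.07), at 315 ± 42.6 CPM in microglia-like nuclei. Dnajc12, a partner of the aromatic amino acid hydroxylases, was lower by 2.91 on the log2 scale (SE 0.36; adjusted p = 6.38e-11), at 2.57 ± 1.55 CPM on 6 UMIs, and was highest among tested classes in somatostatin interneuron-like nuclei, at 24.9 ± 3.87 CPM. Rat Dnajc16 overlaps Agmat in RefSeq, and Dnajb6 overlaps 2 pseudogenes and a long noncoding RNA gene. The use of strand in counting is not given in the sources used here, so these values are uncertain. Further members also overlap other genes there, among them Dnaja1 (a microRNA gene), Dnajc3 (a pseudogene), Dnajc1 and Dnajc6 (long noncoding RNA genes), Dnajc7 (Nkiras2) and Dnajc17 (C3h15orf62).

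Among the spiny neurons the family was nearly flat between the Drd1-like and Drd2-like classes. Dnajb5 was the only member called, higher in Drd2-like nuclei by 0.44 (SE 0.12; adjusted p = 0.00422 in edgeR's quasi-likelihood test), where 5.97% of all genes were called higher and 8.25% lower. Between Grm8-like and Drd1-like nuclei 7 members were called higher and 6 lower, against 17.4% and 22.4% of all genes. The largest were Dnajc12 at 0.47 (SE 0.08), Dnajb13 at 0.42 (SE 0.16) and Dnajc3 at 0.37 (SE 0.09) on the higher side, and Dnajc11, of the mitochondrial cristae, at -0.40 (SE 0.08) and Dnajc2, which sits on the ribosome at the tunnel exit, at -0.38 (SE 0.06) on the lower side. Dnajb13 did not reach 5 CPM in every library of either class, and in RefSeq it overlaps a long noncoding RNA gene.

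After naloxone, Dnaja1 was lower over all nuclei and in 5 classes, and Dnajb1 was lower in oligodendrocyte-like nuclei. Over all nuclei it was the only 1 of 42 members called lower, at a log2 change of -0.58, and 0 were called higher, where 0.00576% and 0.0288% of the 17363 genes tested were called lower and higher. At an unadjusted p under 0.05 stood 7 members on the lower and 3 on the higher side, against 14.1% of all genes on either side, and DESeq2 also called Dnajb1 and Dnajc3 lower and Dnajc27 higher. The members' median log2 change was -0.0064 and that of all genes 0.0095. In the 10 tested classes, 321 tests of members gave 6 calls, all lower: Dnaja1 in 5 classes and Dnajb1 in 1. Of all gene tests in those fits 0.1% were called lower and 0.274% higher. At an unadjusted p under 0.05 were 27 member tests on the lower and 11 on the higher side, beside 10.1% of all gene tests on either side, and DESeq2 called 7, the 6 named and Dnajc27 higher in Drd1-like nuclei. Naloxone libraries lay wholly below saline libraries in 44 member tests and wholly above in 20, where 9.09% and 7.05% of all gene tests did. These sums over nuclei do not separate fewer nuclei that express a gene from less RNA per nucleus, and counts per nucleus were not compared.

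**Figure D2:**
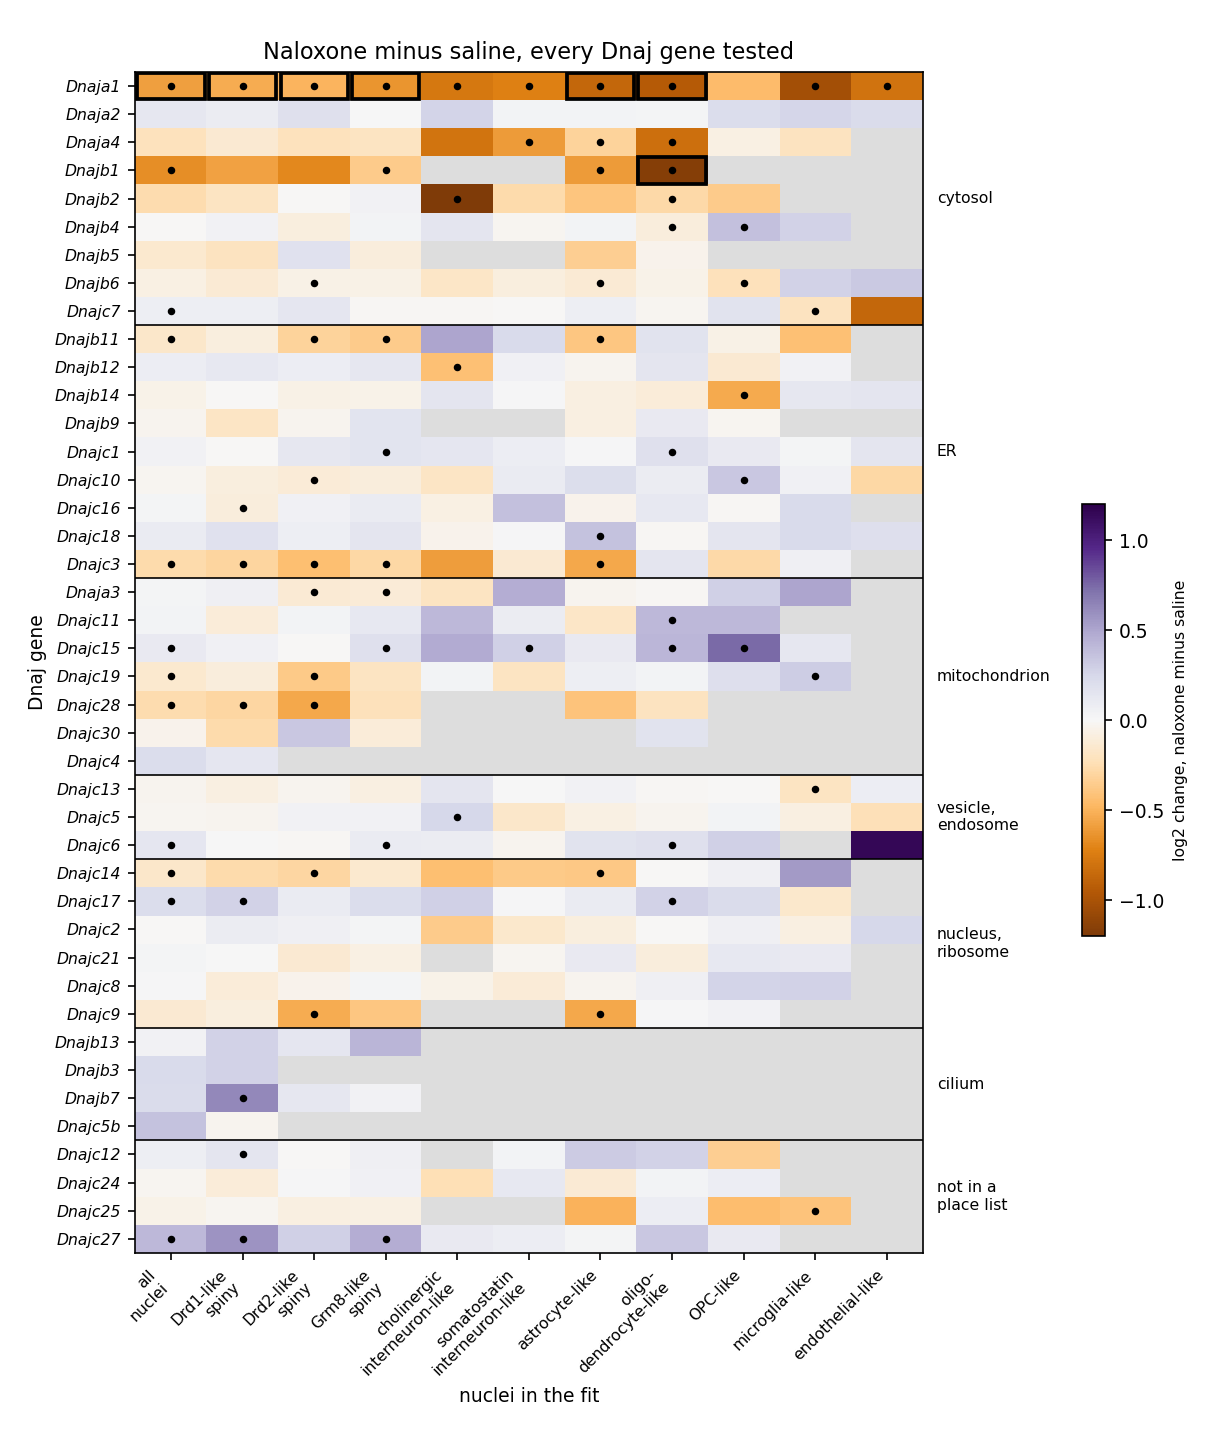
Log2 change, naloxone minus saline, of each of the 42 Dnaj genes tested (rows, grouped by the place of the protein) in all nuclei and in the 10 tested classes (columns); grey cells were not tested, outlined cells have an adjusted p under 0.05, and a dot marks naloxone and saline libraries that do not overlap. The Dnaja1 row is below 0 in every column, between -0.45 and -1.03 in the classes, and the only other outlined cell is Dnajb1 in the oligodendrocyte-like class at -1.17. The colour scale ends at 1.2 in each direction, and OPC is oligodendrocyte precursor.

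Dnaja1, a cytosolic class A member that hands unfolded proteins to HSP70, stood at 94.7, 93.2 and 90.9 CPM over all nuclei in saline replicates 1 to 3 and at 64.5, 57.9 and 64.7 CPM in naloxone replicates 4 to 6. Every naloxone library lay below every saline library. The change was -0.58 (SE 0.07; adjusted p = 0.0466 in edgeR's quasi-likelihood test with Benjamini-Hochberg adjustment). The call was lost in 5 of the 6 omissions of 1 library: leaving out saline replicate 1, 2 or 3 gave an adjusted p of 0.29, 0.209 or 0.171, and leaving out naloxone replicate 4 or 6 gave 0.0899 or 0.0726. It held without naloxone replicate 5, the library of high mitochondrial share, at 0.0114 and a change of -0.52.

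In Drd1-like spiny neurons Dnaja1 was at 75.5, 79.7 and 69.9 CPM after saline and at 55.7, 49.3 and 52.2 CPM after naloxone. The Drd2-like class gave 83.3, 77.0 and 74.7 against 57.2, 51.0 and 56.2 CPM. The Grm8-like class joins a cluster of 2664 nuclei led by Chst9, with Grm8 among its leading genes, and a cluster of 2759 nuclei led by Mdfic and Casz1. Its values were 106, 108 and 90.1 against 68.0, 61.9 and 66.3 CPM. No naloxone library reached a saline library in any of these classes. The log2 changes were -0.53 (SE 0.08), -0.49 (SE 0.09) and -0.63 (SE 0.09), with adjusted p = 0.0276, 0.0276 and 0.0191 in edgeR's quasi-likelihood test, and 1 of 42, 1 of 39 and 1 of 39 members were called lower where 0.103%, 0.191% and 0.04% of all genes were.

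Each of these neuronal calls was lost without certain single libraries. The Drd1-like call was lost when any saline library (replicate 1, 2 or 3) or naloxone replicate 4 was left out (adjusted p = 0.14, 0.174, 0.0743 and 0.0528 in edgeR's quasi-likelihood test). For the Drd2-like class the same held for any saline library and naloxone replicate 5 (adjusted p = 0.144, 0.119, 0.1 and 0.0502), and for the Grm8-like class for saline replicates 1 and 2 (0.112 and 0.195). The change stayed between -0.42 and -0.71 throughout. With each nucleus placed by its own markers in place of its cluster, the changes were -0.50 (SE 0.14), -0.42 (SE 0.10) and -0.54 (SE 0.08), and the adjusted p-values 0.448, 0.132 and 0.0553. Beside these changes, the summed level of 6 mural cell markers was 18.4 to 20.2 CPM in saline and 16.0 to 17.6 CPM in naloxone libraries of the Drd1-like class, 18.8 to 21.3 and 16.4 to 17.5 CPM in the Drd2-like class, and 19.9 to 24.0 and 15.3 to 19.5 CPM in the Grm8-like class. Of these 6 genes 1 was at 0 in all libraries of the Drd1-like and Drd2-like classes. The 4 glutamatergic markers summed to 1.14 to 1.57 CPM in saline and 1.94 to 4.01 CPM in naloxone libraries of the Grm8-like class. The part of these differences in the result was not tested.

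**Figure D3:**
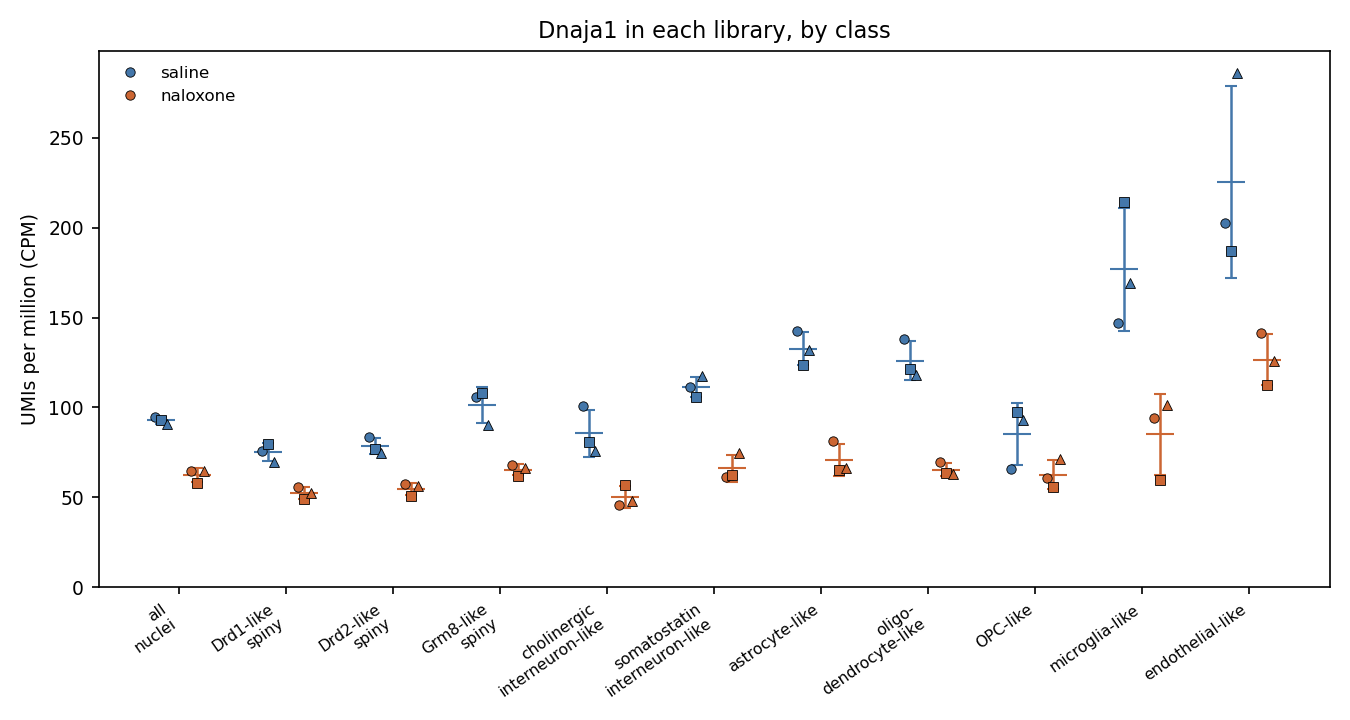
Dnaja1 in CPM of the class (y axis, from 0) in all nuclei and the 10 tested classes (x axis), with a point per library, circle, square and triangle for saline replicates 1, 2, 3 and naloxone replicates 4, 5, 6, and the mean with SD of the 3 libraries of each treatment. The naloxone libraries lie below the saline libraries in all nuclei and in every class except oligodendrocyte precursor-like, where saline replicate 1 (65.6 CPM) lies under naloxone replicate 6 (71.6 CPM).

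The largest called changes of Dnaja1 were those of astrocyte-like and oligodendrocyte-like nuclei. Precursor-like nuclei, which are glia as well, had the smallest change of the 10 classes, -0.45, without a call. Set against spiny neurons, the change in astrocyte-like nuclei was not called different (-0.31, SE 0.12). Astrocyte-like nuclei held 143, 124 and 132 CPM after saline and 81.1, 65.3 and 66.4 CPM after naloxone, a change of -0.87 (SE 0.12; adjusted p = 0.00455 in edgeR's quasi-likelihood test; 1 of 36 members called lower, 0.173% of all genes). Every naloxone library was below every saline library, and the call held without any single library, with an adjusted p of at most 0.0355. The class joins clusters led by Slc1a2 and by Lama2. The Slc1a2-led cluster made up 73.8% to 84.2% of the class in saline and 67.7% to 73.2% in naloxone libraries. Mean Dnaja1 went from 139 to 68.5 CPM in it, without overlap. In the Lama2-led cluster it went from 109 to 76.6 CPM, with overlap. The part of this shift was not tested. The summed level of the 7 astrocyte markers differed as well, 5549 to 6007 CPM in saline and 6717 to 7241 CPM in naloxone libraries, with 3 of the 7 higher in every naloxone library. The 7 microglia markers summed to 28.3 to 34.0 and 37.4 to 46.2 CPM, and the 4 glutamatergic markers to 2.57 to 4.08 and 5.44 to 9.70 CPM. The part of these differences in the result was not tested.

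Oligodendrocyte-like nuclei held 138, 121 and 118 CPM of Dnaja1 after saline and 69.6, 63.7 and 63.2 CPM after naloxone. The groups did not overlap, and the change was -0.94 (SE 0.11; adjusted p = 0.00122 in edgeR's quasi-likelihood test; 2 of 37 members called lower with Dnajb1, 0.203% of all genes). It kept its call without any single library, with an adjusted p of at most 0.0151. Different clusters hold this class in the 2 treatments, however. The cluster led by Ermn made up 76.0% to 81.6% of the class in saline libraries and 7.21% to 45.9% in naloxone libraries, and the cluster led by Gpd1 made up 0.737% to 2.68% and 36.0% to 84.9%. Within the Ermn-led cluster alone, an alternative chosen after seeing the data, Dnaja1 was at 140, 125 and 127 CPM after saline and 89.5, 103 and 82.7 CPM after naloxone, with no overlap, a change of -0.58 (SE 0.13) and an adjusted p of 0.192. The value of naloxone replicate 5 there rests on 14 UMIs in 125 nuclei. In the Gpd1-led cluster the naloxone libraries held 60.5, 65.4 and 59.8 CPM. Its saline nuclei, 10, 44 and 60 in number, were too few to compare. The class also holds clusters led by Cyp2j10 and Svep1. Mean Dnaja1 went from 115 CPM after saline to 51.5 CPM after naloxone in the Cyp2j10-led cluster, on 306 UMIs. In the Svep1-led cluster it went from 99.1 to 38.7 CPM, on 132 UMIs, and the libraries overlapped in neither.

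Markers of other cell types also differed within the oligodendrocyte-like class. The 4 somatostatin interneuron markers summed to 17.4 to 19.8 CPM in saline and 29.98 to 35.8 CPM in naloxone libraries, with 3 of the 4 higher in every naloxone library. The 5 markers of other GABAergic interneurons summed to 2.83 to 5.66 and 6.16 to 10.5 CPM, the 4 precursor markers to 51.4 to 53.6 and 57.9 to 71.8 CPM, and the 6 mural markers to 16.0 to 17.8 and 10.2 to 13.1 CPM. The 8 oligodendrocyte markers themselves were at 14213 to 15319 and 15774 to 16776 CPM. No gene of these lists was at 0, and the part of these differences in the result was not tested.

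Fewer counts stood behind the values of the other classes. Microglia-like nuclei held 147, 214 and 169 CPM of Dnaja1 after saline and 94.3, 59.5 and 101 CPM after naloxone, a change of -1.03 (SE 0.22; adjusted p = 0.0679 in edgeR's quasi-likelihood test) that was called without naloxone replicate 6 (0.0228). The 8 oligodendrocyte markers in this class summed to 1592 to 1716 CPM in saline and 2070 to 2859 CPM in naloxone libraries, and the 4 precursor markers to 137 to 162 and 195 to 266 CPM, whose part in the result was not tested. Cholinergic, somatostatin and endothelial-like nuclei gave -0.77 (SE 0.19), -0.73 (SE 0.19) and -0.80 (SE 0.27), each without overlap and none called (adjusted p = 0.949, 0.255 and 0.994). Precursor-like nuclei gave -0.45 (SE 0.16; adjusted p = 0.388), with overlap. Thus the log2 change of Dnaja1 was below 0 in 10 of 10 classes, without overlap in 9. In the mural-like and ependymal-like classes, which were not tested, it overlapped, on 52 and 137 UMIs. 

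Split by cluster rather than by class, the same picture held in clusters that no marker list named. Of the 48 clusters, 37 had at least 20 nuclei in every library, 20 of them unnamed. Several unnamed clusters shared leading genes with named ones: Arhgap15 and Blnk (microglia-like), Ermn (oligodendrocyte-like), Gldc (astrocyte-like) and Pdgfra and Cspg4 (precursor-like). These also held more of the spiny neuron markers than the named clusters they resembled. Whether they are mixtures of the named classes was not tested. The mean of Dnaja1 was lower after naloxone in 37 of 37 clusters, and the libraries did not overlap in 31. Among all genes at 5 CPM or more in a cluster, 7.11% had naloxone libraries wholly below the saline libraries. Clusters of 1 library share their source, so the 37 are not independent repeats.

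**Figure D4:**
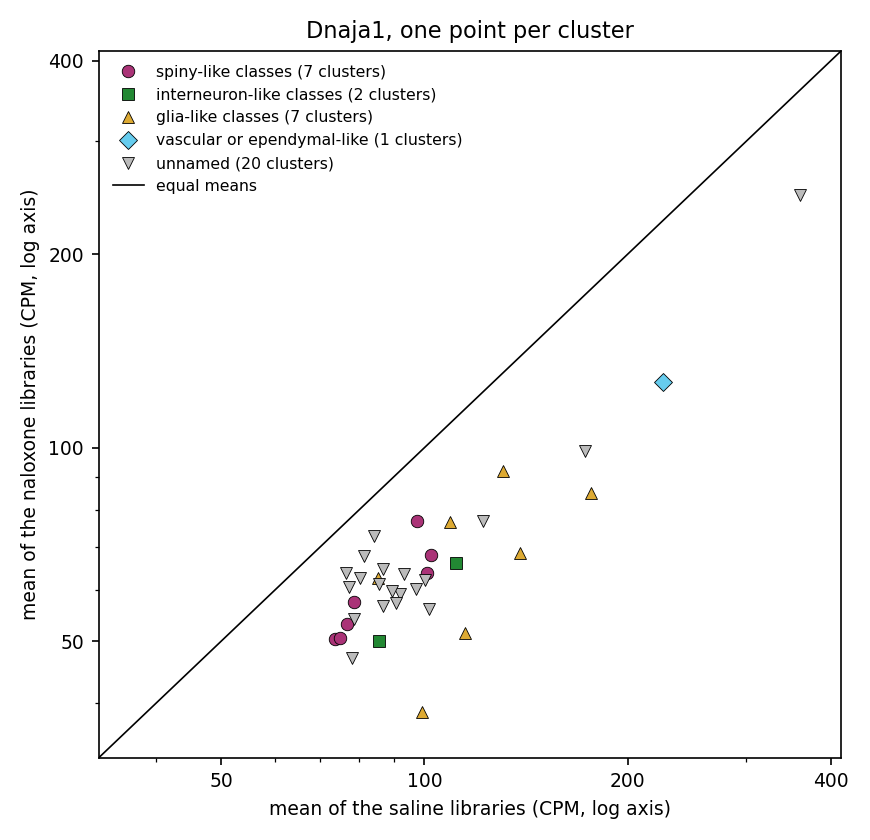
Dnaja1 in each of the 37 clusters with at least 20 nuclei in every library, with the mean of the 3 saline libraries on the x axis and the mean of the 3 naloxone libraries on the y axis, both in CPM on log axes; colours and shapes give the kind of class. All 37 points lie below the line of equal means, the 20 unnamed clusters included.

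Among the other cytosolic members, Dnajb1, the class B partner of HSP70 that rises most in heat shock, was lower in oligodendrocyte-like nuclei. Its level was 14.2, 12.7 and 15.8 CPM after saline and 6.63, 6.16 and 6.24 CPM after naloxone, on 156 and 67 UMIs. The groups did not overlap, and the change was -1.17 (SE 0.22; adjusted p = 0.0269 in edgeR's quasi-likelihood test). The call was lost without saline replicate 1 (adjusted p = 0.108), saline replicate 2 (0.05), saline replicate 3 (0.198), naloxone replicate 4 (0.0716) or naloxone replicate 6 (0.0682). Placing nuclei by their own markers gave a change of -0.74 (SE 0.16) and an adjusted p of 0.0767. In the Ermn-led cluster alone, naloxone replicate 5 held 0 UMIs of Dnajb1 in 125 nuclei. The change there was -1.01 (SE 0.36), with an adjusted p of 0.751 in edgeR's quasi-likelihood test. The shift between the Ermn-led and Gpd1-led clusters given for Dnaja1 touches this value as well. Over all nuclei Dnajb1 stood at 5.63, 4.49 and 5.82 CPM after saline and 3.87, 2.92 and 3.31 CPM after naloxone, without overlap, a change of -0.66 (SE 0.15) that edgeR's quasi-likelihood test did not call (adjusted p = 0.161) and DESeq2 did (0.00886). It was below 0 in 5 of 5 classes tested and lower in mean in 34 of 37 clusters, 10 without overlap. Among all genes at 5 CPM or more in a cluster, 7.11% had naloxone libraries wholly below the saline libraries. Dnajb1 lay under 5 CPM in several clusters, such as the Drd2-led cluster at 3.65 CPM after saline and 2.20 CPM after naloxone. In the ependymal-like class, which was not tested, its naloxone libraries (18.02, 11.4 and 11.8 CPM) lay above its saline libraries (9.38, 9.38 and 10.9 CPM) on 14 UMIs.

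Of the 9 cytosolic members as a group, 7 were below 0 over all nuclei, with a median of -0.14 beside 0.0095 for all genes. Dnaja4, another class A member, was below 0 in 9 of 9 classes and came nearest to a call in oligodendrocyte-like nuclei, at 20.6, 20.7 and 17.6 CPM after saline and 10.4, 12.7 and 10.5 CPM after naloxone. Those libraries did not overlap (change -0.82, SE 0.19; adjusted p = 0.0671 in edgeR's quasi-likelihood test), but with nuclei placed by their own markers the change was -0.21 (SE 0.11; adjusted p = 0.405). Dnaja2, the class A member closest to Dnaja1 in role, lay on the other side of 0: its log2 changes were between 0.001 and 0.27 in 10 of 10 classes, with overlap in each and a smallest adjusted p of 0.409. Dnajb2 was not called. In oligodendrocyte-like nuclei its naloxone libraries, at 232 to 245 CPM, lay below its saline libraries, at 284 to 288 CPM (change -0.28, SE 0.09; adjusted p = 0.256). Dnajb6, below 0 in 8 of 10 classes, ranged from -0.22 to 0.32. Dnajb4 and Dnajc7, the latter a link to HSP90, had smallest adjusted p-values of 0.657 and 0.468.

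The 9 ER members had no call, 5 were below 0 over all nuclei, and their median was -0.03. Dnajc3, which restrains the stress kinase PERK and binds misfolded proteins in the ER lumen, came nearest. Over all nuclei it was at 41.8, 41.9 and 42.1 CPM after saline and 34.6, 35.3 and 35.04 CPM after naloxone. The 2 groups were tight and apart, and the change was small, -0.27 (SE 0.06; adjusted p = 0.137 in edgeR's quasi-likelihood test), called by DESeq2 (0.00828). In Drd2-like nuclei it was 32.2, 33.5 and 34.3 against 22.7, 26.4 and 23.8 CPM (change -0.43, SE 0.10; adjusted p = 0.0771). Astrocyte-like nuclei gave 110, 80.7 and 77.9 against 60.2, 50.03 and 65.2 CPM (change -0.55, SE 0.16; adjusted p = 0.141). The libraries did not overlap in these classes, nor in Drd1-like and Grm8-like nuclei, at -0.31 (SE 0.08) and -0.29 (SE 0.09). Oligodendrocyte-like nuclei, at 48.5, 51.7 and 42.7 against 48.6, 59.1 and 51.6 CPM, and microglia-like nuclei, at 73.5, 84.2 and 94.6 against 100, 76.4 and 91.4 CPM, overlapped and had changes of 0.15 (SE 0.12) and 0.06 (SE 0.23).

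Dnajb11, another ER lumen member that binds unfolded chains with the HSP70 protein BiP, was below 0 in 6 of 9 classes and without overlap in 3, the Drd2-like (-0.31, SE 0.11), Grm8-like (-0.36, SE 0.14) and astrocyte-like class (-0.39, SE 0.15), with a smallest adjusted p of 0.252. Dnajb9, a BiP partner that is induced early in ER stress, ranged from -0.18 to 0.15 over 6 classes with overlap in each. Dnajc10, a disulfide reductase of the ER, had 5 of 10 classes below 0. Dnajb14, an ER membrane protein, was below 0 in 6 of 10, with its lowest value in precursor-like nuclei (-0.53, SE 0.17; adjusted p = 0.288 in edgeR's quasi-likelihood test). Dnajc1, an ER membrane protein that also binds ribosomes, was above 0 in 9 of 10 classes but by at most 0.19, and Dnajc18, another ER membrane member, was above 0 in 8 of 10 with a smallest adjusted p of 0.284.

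**Figure D5:**
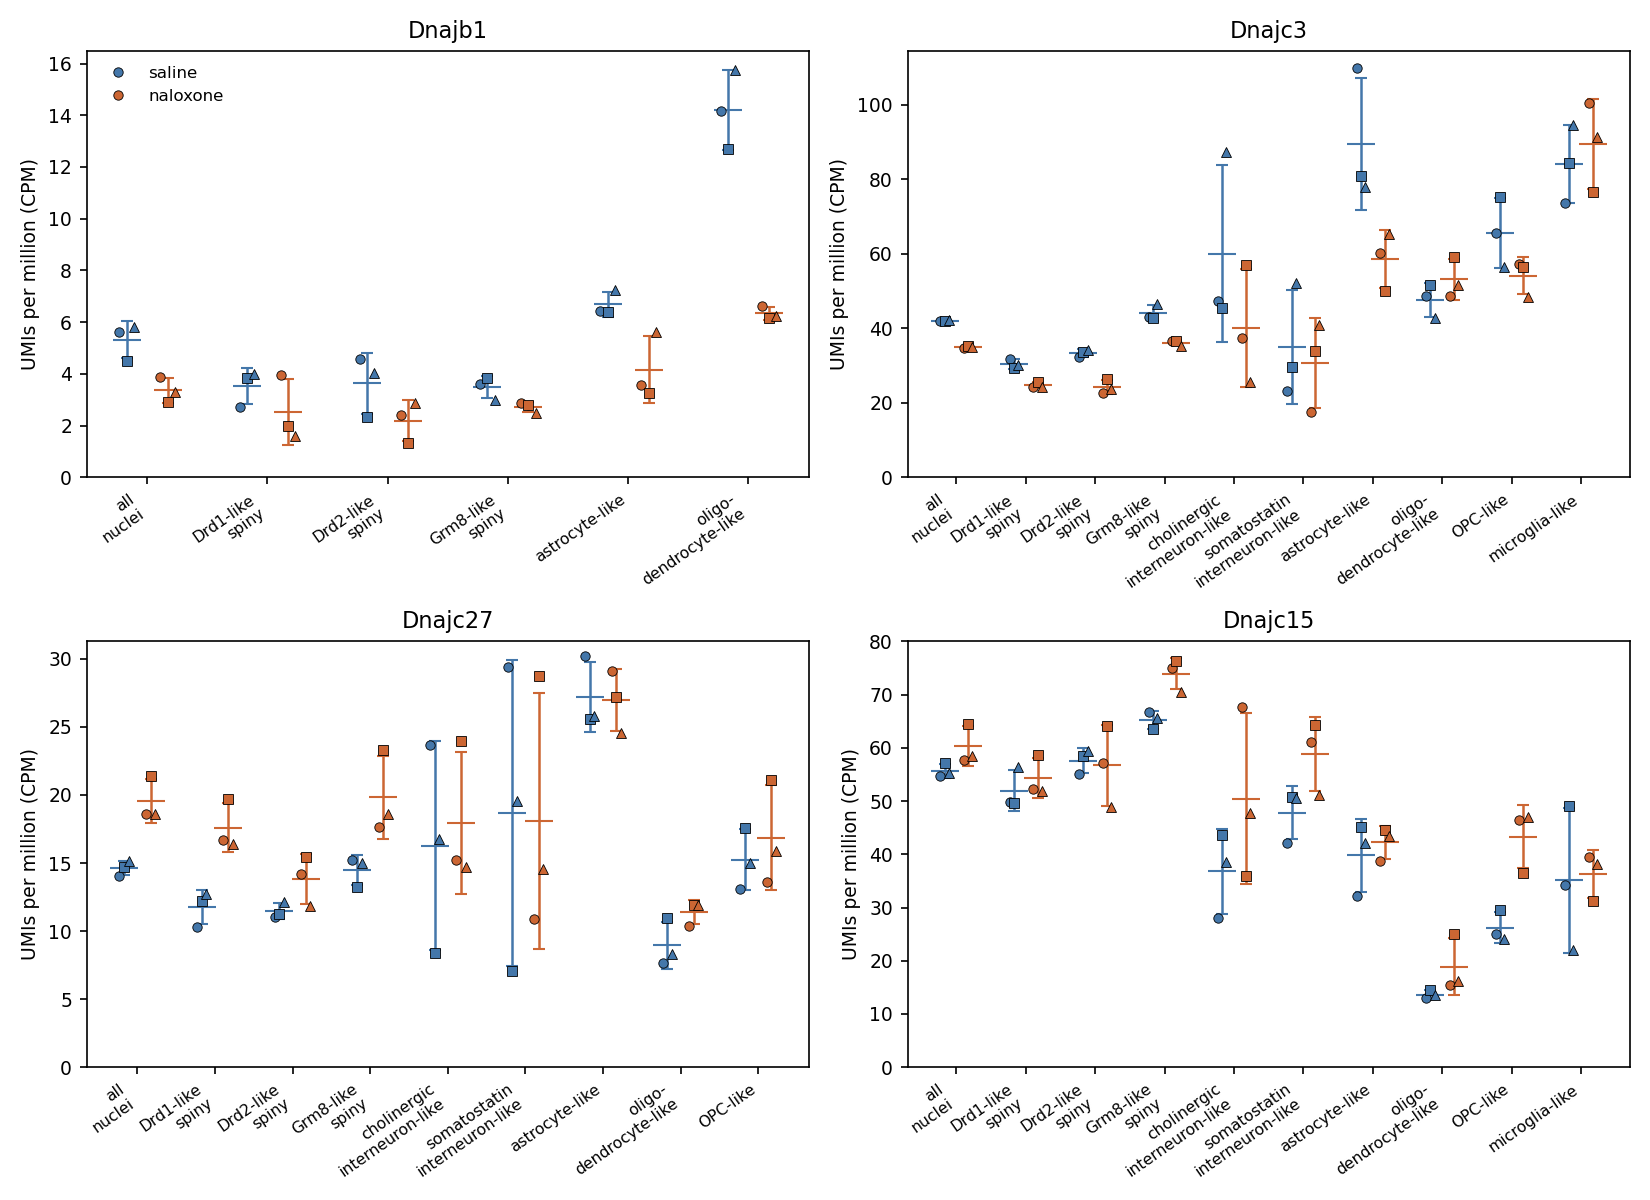
Dnajb1, Dnajc3, Dnajc27 and Dnajc15 in CPM of the class (y axes, from 0) in all nuclei and the classes where each was tested (x axes), with symbols as in the plot of Dnaja1 and the mean with SD of 3 libraries. Dnajb1 in oligodendrocyte-like nuclei falls from 14.2 to 6.34 CPM in mean, Dnajc3 lies lower in the spiny and astrocyte-like classes without a call and overlaps in the oligodendrocyte-like and microglia-like classes, and Dnajc27 and Dnajc15 lie higher after naloxone in several classes without a call.

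Mitochondrial members showed no call among 7 tested over all nuclei, with 3 below 0. Dnajc15, which sits at complex I and the import motor of the inner membrane, was above 0 in 8 of 9 classes and without overlap on the higher side in 4, Grm8-like, somatostatin, oligodendrocyte-like and precursor-like. In precursor-like nuclei it was at 25.1, 29.6 and 24.0 CPM after saline and 46.5, 36.4 and 47.004 CPM after naloxone (change 0.74, SE 0.21; adjusted p = 0.187 in edgeR's quasi-likelihood test). Grm8-like nuclei gave 66.8, 63.5 and 65.6 against 75.007, 76.3 and 70.6 CPM (change 0.18, SE 0.08; adjusted p = 0.415). Dnajc19, the J protein of the same import motor, was at -0.37 (SE 0.10; adjusted p = 0.14) in Drd2-like nuclei and overlaps Fxr1 in RefSeq. Dnaja3, a matrix member, had changes of both signs, 5 of 9 below 0. Dnajc28 was below 0 in 5 of 5 classes, between -0.55 and -0.20, with a smallest adjusted p of 0.26, and overlaps Son in RefSeq.

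The vesicle and endosome members changed little in size. Dnajc6 differed by 0.13 (SE 0.05) over all nuclei without overlap (adjusted p = 0.322 in edgeR's quasi-likelihood test). Its value in endothelial-like nuclei was larger, 1.14 (SE 0.47; adjusted p = 0.994), on 37 saline and 98 naloxone UMIs with overlap, while Dnajc5 ranged from -0.23 to 0.24 and Dnajc13, the endosomal RME-8, from -0.20 to 0.15 over 10 classes. None of the 6 members listed under nucleus and ribosome was called; the list includes Dnajc14, which is known from the ER. Dnajc17, a splicing-linked member, was above 0 in 8 of 9 classes (0.28, SE 0.10 in Drd1-like nuclei; adjusted p = 0.289), and Dnajc9, a histone chaperone, was at -0.53 (SE 0.20) in Drd2-like and -0.55 (SE 0.24) in astrocyte-like nuclei, with a smallest adjusted p of 0.285; in RefSeq it overlaps Fam149b1. The 4 members of the cilium and testis list that were tested over all nuclei were above 0, with a median of 0.23. Dnajc24 and Dnajc25, outside these lists, had smallest adjusted p-values of 0.711 and 0.521.

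Dnajc27, a Rab-like GTPase with a J domain, was the member nearest to a call on the higher side. Over all nuclei it was at 14.1, 14.7 and 15.1 CPM after saline and 18.6, 21.4 and 18.6 CPM after naloxone. In Drd1-like nuclei the values were 10.3, 12.2 and 12.7 against 16.7, 19.7 and 16.4 CPM. The groups did not overlap in either, and the changes were 0.41 (SE 0.08; adjusted p = 0.128 in edgeR's quasi-likelihood test) and 0.57 (SE 0.12; adjusted p = 0.084), called by DESeq2 (0.00311 and 0.0259). It was above 0 in 8 of 8 classes tested, without overlap also in Grm8-like nuclei, it was called over all nuclei without naloxone replicate 5 (0.049), and it was higher in mean in 29 of 37 clusters, 10 without overlap, beside 6% of all genes. In RefSeq it overlaps the adenylyl cyclase gene Adcy3, so its reads may be shared with that gene.

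Whether naloxone moved a member differently in glia than in spiny neurons was tested directly, as the class by treatment term of 1 fit with library as a block, on 41 members of 14618 genes. For oligodendrocyte-like nuclei 2 members were called, 1 higher and 1 lower, where 1.11% and 0.752% of all genes were. The change of Dnaja1 was lower there than in spiny neurons by 0.40 on the log2 scale (SE 0.11; adjusted p = 0.0297 in edgeR's quasi-likelihood test), and that of Dnajc3 was higher by 0.49 (SE 0.12; adjusted p = 0.0149). The Dnaja1 call was lost without saline replicate 1 (adjusted p = 0.128), saline replicate 3 (0.142), naloxone replicate 4 (0.0911) or naloxone replicate 6 (0.123). That of Dnajc3 had an adjusted p of 0.258 when saline replicate 3 was left out, and of 0.0502 and 0.0658 when naloxone replicates 5 and 6 were. Both rest on the oligodendrocyte-like class, whose clusters differ between treatments. In the Ermn-led cluster alone the change of Dnaja1 was -0.58, and in oligodendrocyte-like nuclei placed by their own markers -0.60, beside -0.53, -0.49 and -0.63 in the Drd1-like, Drd2-like and Grm8-like classes and -0.50, -0.42 and -0.54 there with nuclei placed by their own markers. By the log2 ratio of treatment means with 1 CPM added, Dnaja1 was at -0.51 in the Ermn-led cluster. It was at -1.14 in the Cyp2j10-led and -1.33 in the Svep1-led cluster, and between -0.34 and -0.65 in the spiny neuron clusters. The difference from spiny neurons was not tested in those sets of nuclei. For astrocyte-like, precursor-like and microglia-like nuclei 0 members were called, where 0.937%, 0.219% and 0.28% of all genes were and 6, 4 and 6 members had an unadjusted p under 0.05, beside 10.2%, 7.52% and 8.21% of all genes. Dnaja1 there had differences of -0.31 (SE 0.12; adjusted p = 0.269), 0.06 (SE 0.15; adjusted p = 1) and -0.46 (SE 0.19; adjusted p = 0.464).

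The chaperones that work with DnaJ proteins were read in the same fits, on lists chosen with earlier results of these data known. Hsph1, the HSP110 that exchanges nucleotide on HSP70, was called lower in 6 of 10 classes (-0.55 to -1.47 over all 10). Chordc1, an HSP90 cochaperone, was called lower in 7 of 10, Hsp90aa1, the inducible HSP90, in 4 of 10 and Stip1, which bridges HSP70 to HSP90, in 4 of 10; all 3 were below 0 in 10 of 10. Hspa8, the standing cytosolic HSP70 to which these DnaJ proteins bind, was called lower in oligodendrocyte-like nuclei alone, from 113 ± 7.88 to 69.9 ± 7.97 CPM (SD, n = 3; change -0.69, SE 0.12; adjusted p = 0.0194 in edgeR's quasi-likelihood test). The Ermn-led and Gpd1-led clusters of that class differ in share between treatments, and their part in the Hspa8 value was not tested. Fkbp5, an HSP90 cochaperone induced by glucocorticoids, was the only listed chaperone called higher, in 4 of 10 classes. Of the 12 unfolded protein response genes, 1 was called, Pdia4 in Drd2-like nuclei at -0.55 (SE 0.11; adjusted p = 0.0475), and among J-domain genes with other symbols, Sec63, Hscb and Gak were not called in any class. Over all nuclei 14 of the 15 HSP70 and HSP110 genes and 9 of the 12 HSP90 genes were below 0, with medians of -0.19 and -0.33 beside 0.0095 for all genes, and none was called.

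Each library pools both sexes, so sex could be compared within libraries after nuclei were sorted by Xist and Y-linked UMIs. Of the 58960 nuclei used, 42586 could be sorted, and 4361 that held both kinds of UMI were left out. Free RNA of the other sex among the sorted nuclei was not measured. In edgeR's quasi-likelihood test 0 of 42 members differed between male and female nuclei, where 0.0913% of 16435 genes were called and 2 members and 8.69% of all genes had an unadjusted p under 0.05. For the sex by treatment term 0 members and 0 genes were called, with 1 member and 1006 genes at an unadjusted p under 0.05.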

How the data were processed

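Single-nucleus UMI counts per gene were taken as deposited by the authors, 1 matrix for each of 6 libraries (3 saline, 3 naloxone); per the submitters' processing notes Cell Ranger 9.0.1 and build mRatBN7.2 were used, and the counting of introns, the annotation release and the use of strand are not given in the sources used here. The notes also name Seurat 5.2.1 and R 4.4.0, with no role.

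From these counts, a barcode was kept if it held 500 genes or more and no more than 5% of its UMIs were mitochondrial. Doublets were called per library by likeness to simulated sums of nuclei (2649, or 4.3%) and removed. Nuclei were clustered (scanpy 1.11.5, leidenalg 0.10.2; 3000 variable genes, 40 components, 15 neighbours, resolution 1) with the Dnaj and heat shock genes left out, and 20 of 48 clusters were named from marker lists. A class was tested with at least 20 nuclei in each library. Raw counts were summed per library and class and tested with edgeR 4.0.16 (limma 3.58.1, R 4.3.3; TMM factors, the filterByExpr filter, quasi-likelihood test, Benjamini-Hochberg adjustment over all genes of a fit). Classes were compared with library as a block. Levels are CPM, with no scaling by gene length, so levels are not compared between genes. The fits were tested on simulated data. Libraries held 55739350 to 76272798 UMIs, and for several levels that rest on few UMIs their number is given.

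The family and the gene lists were chosen with earlier results of these data known; within the family, membership follows from the symbol alone. Members named are those called in any fit or alternative, those of at least 10 CPM in a class and 2 times the next class, and those whose libraries do not overlap in the same direction in at least 4 classes; others stand as examples of their place in the cell. The alternatives run were DESeq2 1.42.0, DESeq2's size factors in edgeR, all genes with a UMI, omission of each library in turn, a minimum of 1000 genes per nucleus, retention of doublets, detection at 1 or 10 CPM, and placing each nucleus by its own markers.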

Additional observations from a re-analysis of the deposited data

Results flagged for a closer look

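The change after naloxone differed between oligodendrocyte-like nuclei and spiny neurons for 2 members by the class by treatment term of edgeR's quasi-likelihood test. For Dnaja1 the difference of log2 changes was -0.40 (SE 0.11; adjusted p = 0.0297), a lower value in oligodendrocyte-like nuclei. For Dnajc3 it was 0.49 (SE 0.12; adjusted p = 0.0149), where spiny neurons were at -0.29 to -0.43 and oligodendrocyte-like nuclei at 0.15. The clusters that hold the oligodendrocyte-like class differed between treatments, and their part in these differences was not tested. The change of Dnaja1 itself was -0.94 in the class, -0.58 in its Ermn-led cluster alone and -0.60 with nuclei placed by their own markers, beside -0.49 to -0.63 in the spiny neuron classes. By the log2 ratio of treatment means with 1 CPM added, it was at -0.51, -1.14 and -1.33 in the Ermn-led, Cyp2j10-led and Svep1-led clusters. In the spiny neuron clusters that ratio was between -0.34 and -0.65.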

How the results depend on the processing

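No paired analysis was run because the labels name no pairing of saline libraries (numbers 1 to 3) with naloxone libraries (numbers 4 to 6). Over all nuclei 1 member was called, and DESeq2 called 4, other size factors 0, at least 1000 genes per nucleus 0, and leaving out a library between 0 and 2. Over the classes 6 calls became 12 with no filter on low counts, 2 with nuclei placed by their own markers and 2 to 6 without a library. The 5 classes in which Dnaja1 was called became 2 with nuclei placed by their own markers and 2 to 6 without a library, fewest without saline replicate 1 or 2. The 2 members whose change differed between classes became 0 to 2 without a library. The cause of these moves was not tested. The alternatives were followed for 20 values of single members, those of Dnaja1, Dnajb1, Dnajc3, Dnajc27, Dnaja4 and Dnajc19 in certain fits. None of these 20 changed sign under any alternative run, which says nothing of the values of other members. Counted over these values and their alternatives, 168 kept their side of the threshold, 35 lost it and 12 gained it. The Ermn-led cluster alone was chosen after seeing the data. Placed by their own markers, Dnaja1 stayed called in astrocyte-like (-0.81) and oligodendrocyte-like nuclei (-0.60). With no filter on low counts Dnajc3 in Drd2-like and astrocyte-like nuclei, Dnajc27 in Drd1-like, Dnajc19 in Drd2-like, Dnaja4 in oligodendrocyte-like and Dnaja1 in microglia-like nuclei were called as well. Small classes limit detection: the smallest library held 93783 UMIs in the endothelial-like and 204142 in the microglia-like class.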
